A study of Mus musculus with 157 samples.

Results

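The mRNAs described here encode the core of the switch that lets a cell pass from G1 into S phase. They are the D-type cyclins Ccnd2 and Ccnd3, their kinases Cdk4 and Cdk6, the later kinase Cdk2 with its E-type cyclins Ccne1 and Ccne2, the inhibitor Cdkn1b, the pocket protein Rb1 and the transcription factor E2f1. These 10 of the 19600 genes of the count table were chosen by name, as members of this pathway. They were measured on the ribosomes of splenic B cells from adult C57BL/6Babr mice, whose lysates were spread over sucrose gradients so that the 3′ ends of mRNA could be sequenced fraction by fraction (PolyRibo-3′ RNA-seq). All groups received lipopolysaccharide (LPS) at 10 µg/ml, a mitogen that drives B cells into the cycle. The LPS group had 48 h of LPS and nothing else. In the LPS+ET group etoposide, an inhibitor of topoisomerase II that leaves double-strand breaks in DNA, was present at 20 µM for 4 h in cells given LPS for 48 h. In the LPS+ET+KU group the labels give 47 h of LPS, then 1 h with 10 µM KU55933, an inhibitor of the damage kinase ATM, and then etoposide at the same dose for 4 h. Cycloheximide, which freezes ribosomes on mRNA, was added to all cells before lysis. The labels do not say how many mice made up a sample, and no group received KU55933 without etoposide or no LPS at all.

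D-type cyclins accumulate when a lymphocyte is stimulated and activate Cdk4 and Cdk6, which begin to phosphorylate Rb1. Rb1 then lets go of E2F factors, E2F raises the E-type cyclins, and Cdk2 with cyclin E completes the phosphorylation of Rb1. Cdkn1b, also called p27Kip1, holds cyclin E with Cdk2 in check, and after DNA damage the p53 target Cdkn1a (p21) does the same.

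Each treatment had 4 gradients of 13 fractions. Fractions 4 to 7 are the monosomes, 8 to 10 the light polysomes and 11 to 16 the heavy polysomes. A gradient is named by its treatment and by the pool tag of its libraries (LUL15, LUL16, LUL17 or LUL18), and values for the 4 gradients of a treatment are listed in that order of pools. Gradient totals ran from 6404957 to 21449781 counts, and single fraction libraries from 14724 to 4170688. The LPS+ET gradient of pool LUL16 stood apart, being the smallest and having 30.4% of its counts in heavy polysomes, against 60.5 to 68.2% in the other 3 LPS+ET gradients. This percent was 52.3 to 62.4 in LPS and 43.1, 37.6, 55.5 and 51.4 in LPS+ET+KU. Levels add up the counts of all fractions, so they weight each fraction by its depth, which differed between treatments. Levels are given in CPM (counts scaled to a common library total). Markers of other cells summed to no more than 2.58 CPM for T cells (4 genes) and to 29.8 to 160 CPM for myeloid cells (6 genes). Of 6 B cell markers (Pax5, Cd79a, Ms4a1, Cd74, Cd22 and Cd79b) edgeR called Cd22 alone, which fell by 2.12 on the log2 scale in LPS+ET (adjusted p = 0.00171) and by 1.82 in LPS+ET+KU (adjusted p = 0.0053) against LPS. With the block Cd79a and Ms4a1 fell as well in both. Of the 6 myeloid markers edgeR called none in LPS+ET against LPS, though 2 had an unadjusted p under 0.05. It called 1 against LPS when KU55933 was present, Cd14, higher by 3.83 (adjusted p = 0.000248), with the other 5 between -0.13 and 0.94. With the block Cd14 was called in both. The part of these markers in the results was not tested. All 12 p53 targets of a checking list rose in LPS+ET over LPS, with Cdkn1a at 24.3 to 35.1 CPM in LPS and 502 to 929 CPM in LPS+ET. In LPS+ET+KU edgeR called 10 of the 12 higher than in LPS, where 10.7% of all genes were called. Between LPS+ET+KU and LPS+ET it called 0 of the 12 (0.455% of all genes), and with the block 3 were lower (6.36% of all genes called).

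The table counts the 3′ ends of mRNAs, so levels were not scaled for length. Levels of different genes still depend on the depth of the fractions in which each mRNA sat. The counted ends of all 10 genes were placed on GRCm38. For 6 of the 10 (Ccnd3, Cdk4, Cdk2, Ccne1, Cdkn1b and Rb1) the table lists a single end. Ccnd2 had 7 ends, of which the annotated end of the gene took 45.8% of its counted tags and an end 3709 bases upstream 17.3%, and 1 minor end lay in the 5′ UTR of an annotated transcript. E2f1 had 2 ends, with 87.2% and 12.8% of the tags. Cdk6 had 9, of which 3 were intronic, and Ccne2 had 3. Lpar6 lies within Rb1 and Tspan31 ends against Cdk4, both on the opposite strand, which the table keeps apart. Sites of E2f1, Ccnd2, Ccne1, Cdkn1b and Cdk2 follow, for E2f1 and Ccnd2 the 2 ends with most tags. Each is given as the last 30 bases of mRNA up to the counted end, 5′ to 3′. The poly(A) signal (AATAAA or its variant ATTAAA, searched on the mRNA strand) is in capitals where the window held one.
E2f1, end 1, 3′ UTR of E2f1-202, minus strand, up to position 154559633 of chromosome 2: ttgattttAATAAAtgttttgatggtgtta
E2f1, end 2, 3′ UTR, up to position 154560067: agagcactgcttaaaagttttccgatcgaa
Ccnd2, end 1, 3′ UTR of Ccnd2-201, minus strand, up to position 127125162 of chromosome 6: tttggacAATAAActcaccttgacctacaa
Ccnd2, end 2, 3′ UTR, up to position 127128871: gacagtcagtaaacagaagtgggagccaca
Ccne1, 3′ UTR of Ccne1-201, minus strand, up to position 38097984 of chromosome 7: atttttAATAAAgataatactatctttgaa
Cdkn1b, 3′ UTR of Cdkn1b-202, plus strand, up to position 134925513 of chromosome 6: agcaatcAATAAAgaaaacttccgtagtta
Cdk2, 3′ UTR of Cdk2-201, minus strand, up to position 128697944 of chromosome 10: ttgtaaattcATTAAAagaaaatattctca
The main ends of E2f1 and Ccnd2 carried the signal and their second ends did not. Of the genes not shown, the main ends of Ccnd3, Ccne2 and Rb1 carried it and those of Cdk4 and Cdk6 did not. The site counts are pooled over all libraries, so the use of the ends could not be compared between treatments.

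E2f1 and Ccnd2 were the genes whose place on the gradient differed most from each other, and their start codons are shown for that reason, as 20 bases of 5′ UTR, the ATG in capitals and 7 bases of coding sequence.
E2f1 start: ccacgcgggccgtgagcgccATGgccgtag
Ccnd2 start: cgagtggtggccggctggctATGgagctgc
The E2f1 gene lies at chr2:154559407-154569892 on the minus strand and its transcript has 7 exons, a coding sequence of 1293 bases, a 5′ UTR of 158 bases and a 3′ UTR of 1281 bases. Ccnd2 lies at chr6:127125162-127152193, also on the minus strand, with 5 exons, 870 coding bases, a 5′ UTR of 287 bases and a 3′ UTR of 5173 bases. E2f1 thus had the longer coding sequence of this pair and the lower share on heavy polysomes.

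The levels of the 10 mRNAs in LPS gradients spanned a wide range, from Cdk2 at 535 ± 105 CPM (SD, n = 4) to Cdk6 at 2.6 ± 0.80 CPM. Between them came Ccnd2 at 383 ± 56.3, Cdk4 at 329 ± 78, Cdkn1b at 132 ± 41.2, Ccne1 at 86.3 ± 19.2, Ccnd3 at 69.6 ± 24.4, Rb1 at 67.4 ± 7.68, E2f1 at 47.5 ± 4.81 and Ccne2 at 18.3 ± 5.34 CPM. In LPS the ranges of neighbours overlapped in that order except for Cdk4 over Cdkn1b, Rb1 over E2f1, E2f1 over Ccne2, and Ccne2 over Cdk6. Cdk6 had 324 counts in all 12 gradients, and its fraction profile could not be read. These are levels on ribosomes relative to all other mRNA, and in such bulk samples fewer cells of a kind and less mRNA per cell cannot be told apart.

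Of the 10 mRNAs, 9 had a lower fitted level in LPS+ET than in LPS and Ccne2 a higher one. None passed the edgeR quasi-likelihood test at a Benjamini-Hochberg adjusted p under 0.01, where 12.7% of the 12755 genes tested did, while 5 had an unadjusted p under 0.05. DESeq2 called 2 of them, Cdk2 and Ccne1, and 15.6% of its genes. Gradients of the same pool deviated together, and with the pool as a block edgeR called 5 of the 10, all lower: Ccnd3, Cdk4, Cdk2, Ccne1 and Cdkn1b. In that fit 26.7% of all genes were called, and 12.8% were called lower. The levels in LPS and LPS+ET did not overlap for 3 of the 10, Cdk6, Cdk2 and Ccne1, all lower, for 27.5% of all genes, and in the lower direction for 12.6%. How many of all genes differed in the same direction in every pool was not counted, for levels or for places on the gradient.

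Among the D-type cyclins, Ccnd2 stood at 343, 337, 459 and 390.4 CPM in the LPS gradients, at 264, 155.7, 396 and 273 in LPS+ET, and at 247, 221, 388 and 248 with the inhibitor added. Every LPS+ET gradient was below the LPS gradient of its pool, yet the groups overlapped, since pool LUL17 was high in every group. The fitted log2 difference between LPS+ET and LPS was -0.49 (SE 0.26, edgeR adjusted p = 0.211) and -0.55 with the block (adjusted p = 0.0107). Ccnd3 gave 79.1, 97.8, 40.9 and 60.6 CPM in LPS and 37.4, 87.5, 22.7 and 28.7 CPM in LPS+ET. It was lower in 4 of 4 pools, and pool LUL16 was the highest in both groups. The log2 difference was -0.67 (SE 0.52, edgeR adjusted p = 0.413), and with the block it fell by 0.82 (SE 0.20, adjusted p = 0.00422). This call was lost in 6 of 12 fits that each left out 1 gradient, namely without LPS or LPS+ET of pools LUL15, LUL17 or LUL18, with adjusted p up to 0.0295.

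Cdk4, the partner of the D-type cyclins, was measured at 332, 434, 249.7 and 299.5 CPM in LPS and at 255, 279, 183 and 226 CPM in LPS+ET. The groups overlapped across pools but LPS+ET was lower in each pool. With the block Cdk4 fell by 0.47 on the log2 scale (SE 0.12, edgeR adjusted p = 0.00672), against -0.48 (SE 0.22, adjusted p = 0.142) without it. The blocked call was lost in 8 of 12 fits with 1 gradient left out, those without any gradient of pools LUL15 or LUL17, or LPS or LPS+ET of LUL18 (adjusted p up to 0.0318). Cdk6, with 0.858 to 1.41 CPM in LPS+ET against 1.70 to 3.52 CPM in LPS, did not overlap, and its log2 difference of -1.19 (SE 0.54, edgeR adjusted p = 0.137) rested on 145 counts in LPS and 49 in LPS+ET.

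Cdk2, the kinase of late G1, was the most abundant of the 10. It stood at 628, 624, 454 and 434 CPM in LPS and at 396, 216, 317 and 289.9 CPM in LPS+ET, so that every LPS+ET value was below every LPS value. The log2 difference was -0.81 (SE 0.22, edgeR adjusted p = 0.0187). With the block it fell by 0.80 (SE 0.18, adjusted p = 0.00248), and this call held in 12 of 12 fits with 1 gradient left out. Over all alternatives to the fit without the block the adjusted p ran from 0.00248 to 0.0851, the highest with equal weight for every fraction.

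The E-type cyclins had fitted differences of opposite sign. Ccne1 stood at 96.9, 108, 69.98 and 70.3 CPM in LPS and at 49.5, 33.7, 60.96 and 47.95 CPM in LPS+ET, without overlap. Its log2 difference was -0.84 (SE 0.23, edgeR adjusted p = 0.0167), and with the block it fell by 0.81 (SE 0.21, adjusted p = 0.00647). The blocked call was lost in 7 of 12 fits with 1 gradient left out, those without LPS of pools LUL15, LUL16 or LUL18, LPS+ET of LUL15 or LUL18, or LPS+ET+KU of LUL17 or LUL18 (adjusted p up to 0.0336). Ccne2 stood at 21.2, 12.2, 24.1 and 15.7 CPM in LPS and at 25.6, 17.1, 31.4 and 21.6 CPM in LPS+ET. It was higher in 4 of 4 pools, with a log2 difference of 0.39 (SE 0.25, edgeR adjusted p = 0.308), and 0.40 with the block (adjusted p = 0.0732). The difference between the responses of the 2 cyclins was not tested.

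Cdkn1b, the inhibitor of cyclin E with Cdk2, was the 1 gene of the 10 called between the groups with and without KU55933, in the fit with the block. In the LPS gradients its level was 155, 114, 83.9 and 176 CPM. After etoposide it was 75.4, 81.9, 49.8 and 85.7 CPM, and with KU55933 and etoposide 140.3, 220.0, 73.5 and 159 CPM. Within each pool LPS+ET was the lowest of the 3 treatments, although the groups overlapped across pools. With the block Cdkn1b fell by 0.84 in LPS+ET against LPS (SE 0.18, edgeR adjusted p = 0.00187). It was higher by 0.97 in LPS+ET+KU than in LPS+ET (SE 0.18, adjusted p = 0.00344). Without the block the differences were -0.85 (SE 0.32, adjusted p = 0.0691) and 1.02 (SE 0.32, adjusted p = 0.115). Both comparisons use the same LPS+ET gradients. Each blocked call was lost in 4 of 12 fits with 1 gradient left out: the first without LPS or LPS+ET of pools LUL15 or LUL18 (adjusted p up to 0.0127), the second without LPS+ET or LPS+ET+KU of those pools (adjusted p up to 0.0235).

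Rb1, the pocket protein, and E2f1, the factor it restrains, differed least in level. Rb1 stood at 62.9, 60.2, 69.2 and 77.5 CPM in LPS and at 53.8, 45.7, 66.1 and 55.7 CPM in LPS+ET, a log2 difference of -0.28 (SE 0.19, edgeR adjusted p = 0.336). E2f1 stood at 41, 51.4, 50.8 and 46.8 CPM in LPS and at 35.5, 58.9, 40.2 and 41.3 CPM in LPS+ET, while the LPS+ET+KU gradients gave 37.6, 99.3, 39.8 and 36.9 CPM. Apart from the 99.3 CPM of pool LUL16, all E2f1 values lay between 35.5 and 58.9 CPM. The log2 difference between LPS+ET and LPS was -0.12 (SE 0.30, edgeR adjusted p = 0.831).

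**Figure D1:**
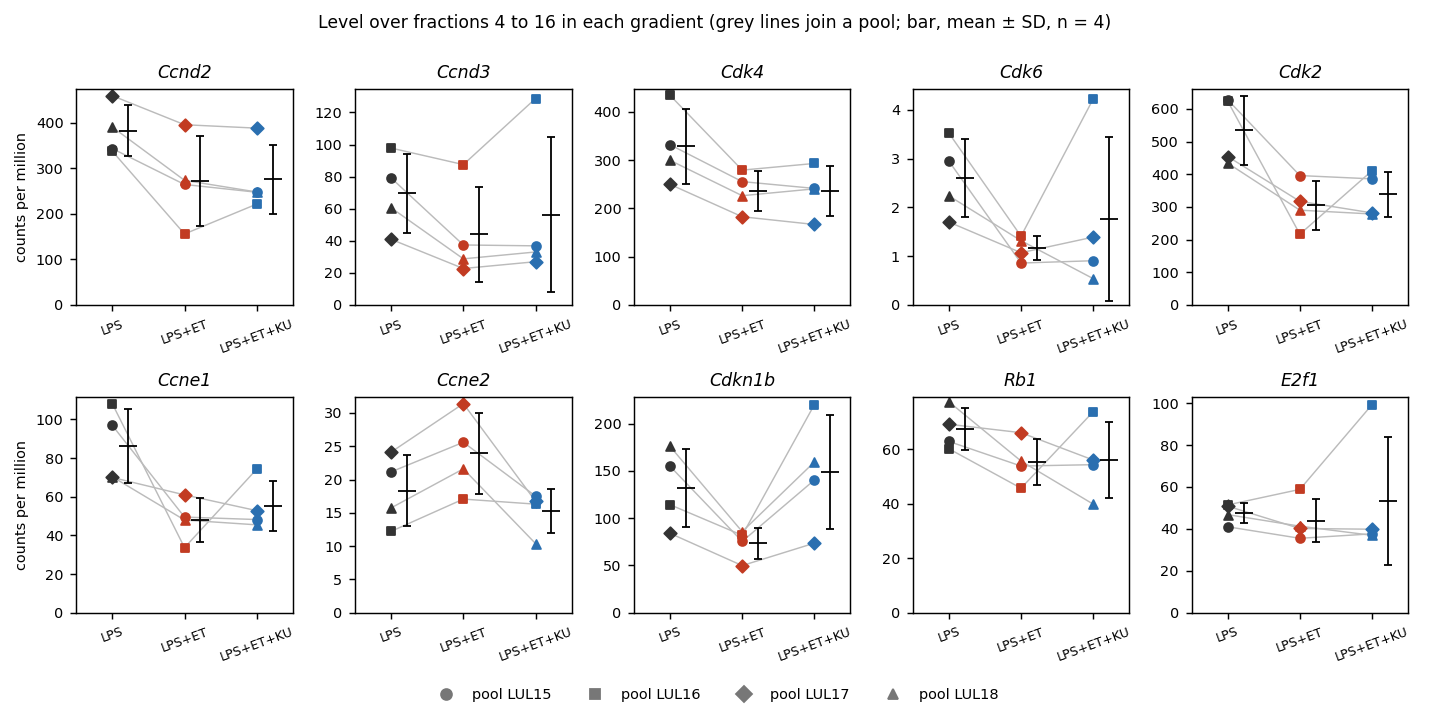
Each panel plots 1 gene's level in CPM (vertical axis, from 0) in the 4 gradients of each treatment, with symbols for the library pools, grey lines joining gradients of a pool, and bars for the mean ± SD (n = 4). Cdk2 and Ccne1 lie lower in LPS+ET than in LPS without overlap, Cdkn1b dips in LPS+ET in each pool, and pool LUL16 of LPS+ET+KU is high for Ccnd3 (129 CPM) and E2f1 (99.3 CPM).

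In LPS+ET+KU against LPS, which shares the LPS gradients with the comparison above, none of the 10 was called by edgeR or DESeq2 (3 at an unadjusted p under 0.05 in edgeR, 10.7% of all genes called). Ccnd2, Cdk4, Cdk2 and Ccne1 were lower in 4 of 4 pools. With the block Cdk4 fell by 0.48 (SE 0.12, edgeR adjusted p = 0.00544) and Cdk2 fell by 0.66 (SE 0.17, adjusted p = 0.00799), where 28.1% of all genes were called and 13.3% were called lower. Each of these calls held in only 3 of 12 fits with 1 gradient left out. Every gradient of pools LUL15 and LUL18 cost at least 1 of them when it was left out, as did LPS of LUL16 and all those of LUL17. Pool LUL16 held the highest LPS+ET+KU values of 8 of the 10, all but Ccnd2 and Ccne2. In a fit added after seeing the data, with the block and without that pool, 8 of the 10 were called lower, all but Cdkn1b and E2f1, where 42.4% of 12854 genes were called and 20.8% were called lower. Cdk2 was the one gene whose LPS+ET+KU levels (386, 411, 282 and 278 CPM) lay wholly below LPS; 26.4% of all genes lay wholly apart and 12.0% wholly below.

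The comparison of LPS+ET+KU with LPS+ET gave no call among the 10 in edgeR or DESeq2, with 2 at an unadjusted p under 0.05 in edgeR and 0.455% of all genes called. With the block 1 was called, Cdkn1b as given above, against 6.36% of all genes (2.77% higher). Ccne2 was lower in LPS+ET+KU in 4 of 4 pools, at 17.5, 16.3, 16.7 and 10.4 CPM, with a log2 difference of -0.65 (SE 0.25, edgeR adjusted p = 0.215) and -0.63 with the block (adjusted p = 0.0247). Without pool LUL16 it was called in the blocked fit (-0.83, adjusted p = 2.33e-05), together with Cdkn1b, where 22.6% of all genes were called. None of the 10 had levels without overlap here, against 8.57% of all genes.

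Within classes of fractions, LPS+ET against LPS gave 1 call of 9 tested in monosomes, Ccne1, which fell by 0.99 (SE 0.24, edgeR adjusted p = 0.00949, 9.52% of 8932 genes called). This call held in 2 of 12 fits with 1 gradient left out, those without LPS of pool LUL18 or LPS+ET+KU of LUL16 (adjusted p otherwise up to 0.0293). With the block 5 were called lower in monosomes, Ccnd3, Cdk2, Ccne1, Cdkn1b and E2f1, against 24.6% of all genes (10.7% lower). In light polysomes Ccne1 fell by 1.06 (SE 0.23, adjusted p = 0.00526) and Cdkn1b fell by 1.18 (SE 0.29, adjusted p = 0.00981), with 10.6% of all genes called. The Ccne1 call was lost in 5 of 12 such fits, without LPS of pools LUL15 or LUL16 or LPS+ET of LUL15, LUL16 or LUL18 (up to 0.019). The Cdkn1b call was lost in 9, every one but those without LPS of LUL17 or LPS+ET+KU of LUL16 or LUL17 (up to 0.0388). With the block 4 were called in light polysomes, those 2 with Ccnd3 and Cdk2, against 25% of all genes (12.1% lower).

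In heavy polysomes none of the 10 was called by edgeR or DESeq2, nor by edgeR with the block, while 6 had an unadjusted p under 0.05 in edgeR and 9.69% of all genes were called (20.6% with the block). Leaving out LPS+ET+KU of pool LUL16 made 1 call there, Cdk6 (-1.78, adjusted p = 0.0062, against -1.75 and 0.0873 with all gradients). For LPS+ET+KU against LPS+ET no class gave a call in edgeR or DESeq2, with 2 at an unadjusted p under 0.05 in each class and 0.213, 0.292 and 0.572% of all genes called in monosomes, light and heavy polysomes. With the block Cdkn1b was called higher in monosomes (0.92, SE 0.16, edgeR adjusted p = 0.000528) and light polysomes (0.75, SE 0.17, adjusted p = 0.00648). Ccne2 fell by 0.88 in heavy polysomes (SE 0.19, adjusted p = 0.0097). The blocked fits called 5.62, 5.35 and 3.27% of all genes in these classes.

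Where an mRNA sat on the gradient was described by its heavy share, the percent of its signal over fractions 4 to 16 that lay in fractions 11 to 16, after every fraction library was scaled to the same total. The libraries were made from equal RNA concentrations, so the shares weight fractions alike and do not give molecules per fraction. In LPS, E2f1 had the lowest heavy share of the 10, at 16.7 ± 3.24% (SD, n = 4), and Ccnd2 the highest, at 75.8 ± 3.60%. The others lay between 48.1% (Cdk4) and 65.6% (Rb1). Over the 8000 genes that averaged at least 100 counts a gradient the median was 55.2%. E2f1 stood above 2.8% of these genes and Ccnd2 above 92.5%, while the other 8 stood above 35.3 to 73.9%. Among these 8 the place of Cdk6 cannot be relied on. It averaged under 100 counts a gradient, and its heavy share ran from 21.3 to 79.1% over the LPS gradients.

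Long coding sequences can carry more ribosomes, and heavy share was higher with longer coding sequence across 7581 genes (Spearman's rho = 0.537, a description across genes, which are not independent). Among genes whose coding length was 0.8 to 1.25 times its own, E2f1 exceeded 0.52% of 1924 genes, whose median was 56.6%. Ccnd2 exceeded 98.2% of 1477 genes with a median of 52.5%. Rb1, with the longest coding sequence of the 10 (2766 bases), exceeded 53% of its 1086 length peers. Cdkn1b, with the shortest (594 bases), exceeded 75.1% of 986.

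**Figure D2:**
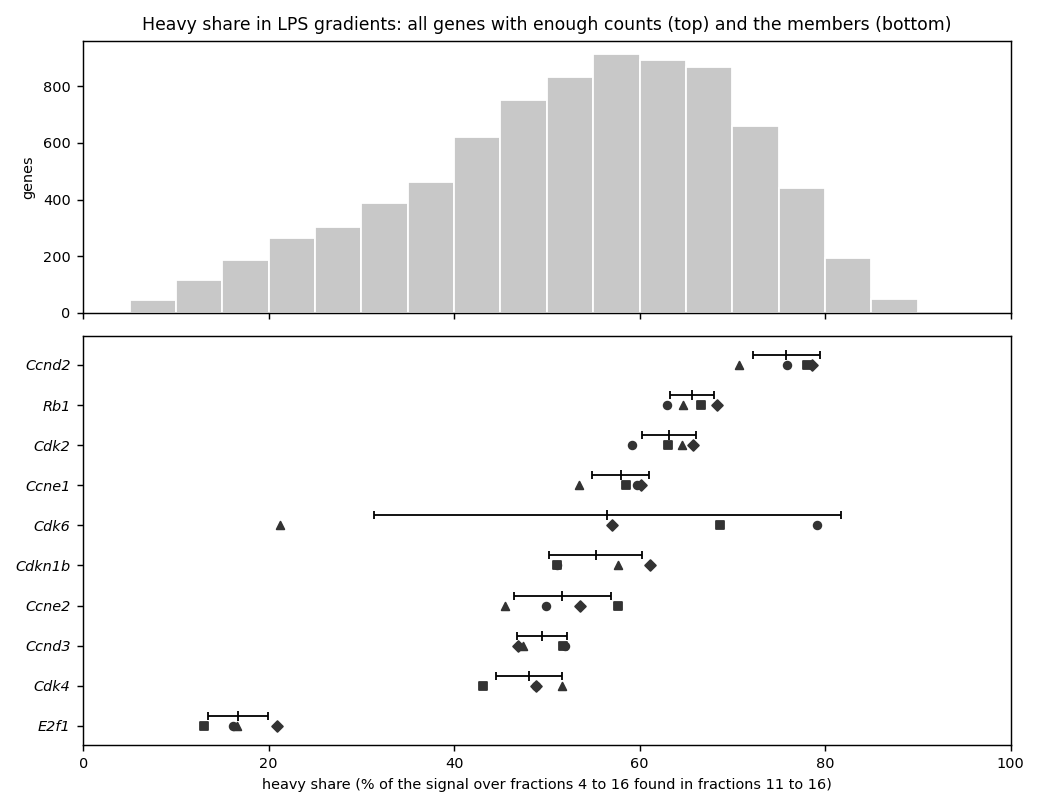
The upper panel is a histogram of the mean heavy share (percent, horizontal axis) of 8000 genes in LPS gradients, with the number of genes on the vertical axis; the lower panel shows the 10 genes on the same axis, with 1 symbol per gradient and bars for the mean ± SD (n = 4). E2f1 lies at 13.0 to 20.9%, Ccnd2 at 70.7 to 78.6%, and the wide bar of Cdk6 reflects its few counts.

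The ratio of heavy polysome to monosome level put the same genes at the ends, Ccnd2 highest and E2f1 lowest, and ordered those between differently. It was fitted in edgeR with a term for each gradient and is read relative to the typical gene. In LPS 6 of the 10 were called, where 51.4% of 11034 genes were: Ccnd2 at 2.11 on the log2 scale, Ccne1 at 0.90, Rb1 at 0.59, Cdk4 at 0.58 and Cdk2 at 0.44 toward heavy polysomes, and E2f1 at -3.03 (SE 0.17, adjusted p = 2.28e-18) toward monosomes. Ccnd2, Ccne1 and E2f1 kept their calls in 12 of 12 fits with 1 gradient left out, and the number called fell to 3 without LPS of pool LUL15. Cdk4 kept its call in 10 of these fits, Rb1 in 9 and Cdk2 in only 3 (edgeR adjusted p up to 0.0187, 0.0352 and 0.0654). In LPS+ET 5 were called against 49.6% of all genes, namely Ccnd2 (1.09), Ccnd3 (0.85), Cdk2 (0.65), Ccne1 (1.25) and E2f1 (-1.76). In LPS+ET+KU 5 were called against 54.4% of all genes, namely Ccnd2 (1.40), Cdk4 (0.47), Cdk2 (0.45), Ccne1 (0.74) and E2f1 (-2.17). That number fell to 3 without LPS+ET+KU of pool LUL15, LUL16 or LUL18 and rose to 9 when every fraction had equal weight, a limma fit in which 52.9% of all genes were called.

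Relative to the typical gene, E2f1 moved away from monosomes after etoposide. The paper reports that etoposide lowered polysome assembly as a whole, which these relative values do not show. Its heavy to monosome ratio rose by 1.27 on the log2 scale between LPS and LPS+ET (SE 0.24, edgeR adjusted p = 0.000391), and 5.10% of all genes were called in this comparison. The call held in 12 of 12 fits with 1 gradient left out (1.09 to 1.43). With equal weight for every fraction it was 1.43 with a limma adjusted p of 0.0179, which misses the threshold, and over all alternatives the adjusted p ran from 7e-05 to 0.0179. The class levels come from the same counts as the ratio and are no separate evidence. The level of E2f1 in monosomes was 84.0 to 116 CPM in LPS and 43.4 to 55.5 CPM in LPS+ET, and in heavy polysomes 13.9 to 21.8 and 20.5 to 25.2 CPM. The monosome level was lower by 0.88 (SE 0.29, edgeR adjusted p = 0.0446) and fell by 0.87 with the block (adjusted p = 0.00151).

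By share of signal, E2f1 had 47.6, 58.6, 49.4 and 48.3% in monosomes in LPS and 39.7, 25.7, 29.6 and 26.6% in LPS+ET. In heavy polysomes LPS gradients had 16.1, 13.0, 20.9 and 16.6% of E2f1, LPS+ET gradients 21.8, 44.2, 25 and 20.4%, and LPS+ET+KU gradients 32.6, 19.4, 25.3 and 21.6%. The heavy share was above LPS in 4 of 4 pools with either treatment, and the groups overlapped. Both comparisons use the same LPS gradients, and the share of all genes above LPS in every pool was not counted. The 44.2% of pool LUL16 rested on 49 tags in fractions 11 to 16 of small libraries; on the counts as deposited that gradient had 13.0% of E2f1 in heavy polysomes. In limma the logit of the heavy share differed by 0.90 between LPS+ET and LPS (SE 0.34, adjusted p = 0.157).

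The peak of the E2f1 profile lay at fraction 6 or 7 in the LPS gradients, at fraction 9 in 3 LPS+ET gradients and 15 in that of pool LUL16. With the inhibitor it lay at fraction 7 or 8. The mean fraction of its signal was 8.04 ± 0.32, 9.25 ± 0.68 and 9.03 ± 0.45 (SD, n = 4) in the 3 treatments. Even after etoposide E2f1 remained on the monosome side of the typical gene (-1.76, above; -0.75 and adjusted p = 0.0128 with equal weight for every fraction).

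Ccnd2 moved the other way, again relative to the typical gene. Its heavy to monosome ratio fell by 1.02 on the log2 scale in LPS+ET against LPS (SE 0.22, edgeR adjusted p = 0.00154). The call was lost without LPS of pool LUL16 (-0.91, adjusted p = 0.0128) and without LPS+ET of pool LUL18 (-0.80, adjusted p = 0.0203), and equal weight for every fraction gave -0.67 (limma adjusted p = 0.12). The adjusted p ran from 0.00116 to 0.12 over the alternatives. In heavy polysomes Ccnd2 was at 472 to 668 CPM in LPS and 254 to 498 CPM in LPS+ET, and in monosomes at 63.9 to 91.4 and 81.0 to 146 CPM. Its heavy share was 75.9, 78.1, 78.6 and 70.7% in LPS and 76.2, 69.9, 67.5 and 63.1% in LPS+ET, lower in 3 of 4 pools and overlapping. E2f1 and Ccnd2 were the only 2 of the 10 called for this change of ratio.

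**Figure D3:**
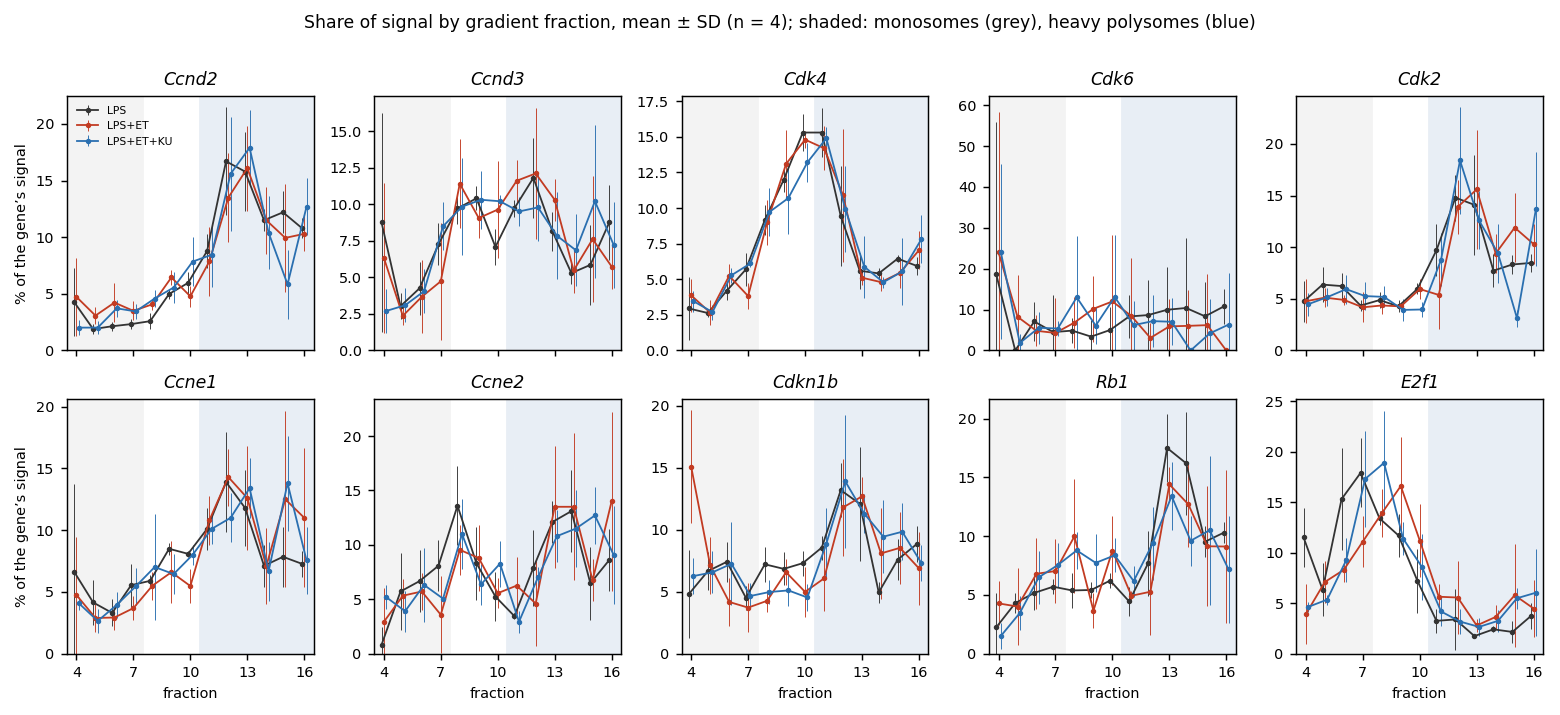
Each panel plots the percent of a gene's signal (vertical axis) in fractions 4 to 16 (horizontal axis) as the mean ± SD of 4 gradients for each treatment, with monosomes shaded grey and heavy polysomes blue. E2f1 peaks in fraction 7 in LPS (17.9%) and in fraction 9 in LPS+ET (16.6%), while Ccnd2 peaks in fractions 12 and 13; the Cdk6 panel is dominated by low counts.

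For LPS+ET+KU the change of this ratio passed no test with all gradients. Against LPS none of the 10 was called (3 at an unadjusted p under 0.05, 5.38% of all genes called in edgeR, and none by limma with equal weight). E2f1 was nearest to the threshold at 0.85 (SE 0.23, edgeR adjusted p = 0.0102), and it was called at 0.94 (adjusted p = 0.00103) without pool LUL16, a fit added after seeing the data. Over the fits with 1 gradient left out E2f1 was called in 5 of 12, namely those without 1 of the 4 LPS+ET gradients or without LPS+ET+KU of LUL16. Ccnd2 gave -0.71 (SE 0.21, edgeR adjusted p = 0.0227). Against LPS+ET none was called by either tool (3 at an unadjusted p under 0.05 in edgeR, 0.181% of all genes called), with E2f1 at -0.41 (SE 0.24, adjusted p = 0.484).

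Heavy shares overlapped between treatments for all 10 genes, where those of 13.5, 16.2 and 5.34% of the 8000 genes did not overlap in LPS+ET against LPS, LPS+ET+KU against LPS and LPS+ET+KU against LPS+ET. Ccne1 had a mean of 58.0 ± 3.09% in LPS, 68.2 ± 7.31% after etoposide and 62.5 ± 5.4% with the inhibitor as well, and was above LPS in 4 of 4 pools with etoposide alone (limma logit difference 0.65, SE 0.25, adjusted p = 0.165). Ccne2 was at 51.7 ± 5.23, 58.6 ± 4.70 and 53.9 ± 8.23%, likewise higher in 4 of 4 pools with etoposide. Rb1 was at 65.6 ± 2.34% in LPS and 55.5 ± 16.2% in LPS+ET, the latter spread set by pool LUL16 at 32.2% against 59.2 to 69.6% in the other 3. With the inhibitor Rb1 was at 56.2 ± 8.51%, below LPS in 4 of 4 pools (limma logit difference -0.57, SE 0.39, adjusted p = 0.437). How many of the 8000 genes kept the same direction in every pool was not counted. Cdk4 (48.1, 47.5 and 48.8%) and Cdk2 (63.2, 66.5 and 66.1%) differed between treatments by less than the larger SD. None of the 9 genes with enough counts was called for heavy share by limma in any comparison, with or without the block or on counts as deposited. At an unadjusted p under 0.05 there were 2 in LPS+ET against LPS and 0 in the others, and limma called 0.350, 0.862 and 0.0% of the 8000 genes.

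A test over all single fractions, fitted in edgeR to the fraction libraries of a pair of treatments, asked whether a gene changed in any fraction. It called 5 of 9 genes between LPS+ET and LPS (Ccnd3, Cdk2, Ccne1, Cdkn1b and E2f1), against 31% of 10360 genes. Fractions of a gradient are not independent samples, so these p-values are too small. The interaction of fraction and treatment alone, with a term per gradient, called 3, Ccnd2 (adjusted p = 0.00539), Cdkn1b (0.00108) and E2f1 (0.000146), against 5.72%. That fit also takes each fraction library as a sample, so its p-values may be too small as well. For LPS+ET+KU against LPS+ET the full test called Cdk2 and Cdkn1b (8.01% of 10472 genes) and the interaction Cdk2 alone (adjusted p = 3.69e-07, 3.63% of all genes).

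For Cdkn1b the lightest fraction differed most. Fraction 4 held 4.81 ± 3.59% of its signal in LPS gradients, 15.1 ± 4.54% after etoposide and 6.26 ± 1.46% with the inhibitor added. The LPS+ET gradients gave 16.3, 9.23, 20.2 and 14.6%. The LPS gradients gave 5.00, 8.66, 5.58 and 0.0%, and the LPS+ET+KU gradients 7.02, 5.37, 7.91 and 4.74%. These shares rested on 0 to 45 tags in LPS and 4 to 36 in LPS+ET. Fraction 4 was singled out from 13 by its values, as was fraction 15 of Cdk2 below. How many of all genes differ so in a single fraction was not counted. For Cdk2 the fraction that stood out was a single heavy one. Fraction 15 held 7.20 to 9.40% of its signal in LPS gradients, 8.42 to 16.4% after etoposide and 2.17 to 4.07% with the inhibitor added, on 13 to 64 tags in the last group. Ccnd2 too had less signal on average in fraction 15 of LPS+ET+KU than of LPS, 5.84% against 12.2%, as had Cdk4 (5.55% against 6.45%) and the sparse Cdk6. The other 6 had more, among them Ccne1 (13.8% against 7.84%), Ccne2 (12.7% against 6.46%), Ccnd3 (10.2% against 5.85%) and E2f1 (5.48% against 2.14%). Every fraction library was scaled to the same total, so a fraction cannot be low for every gene. The cause of the dip was not tested.

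**Figure D4:**
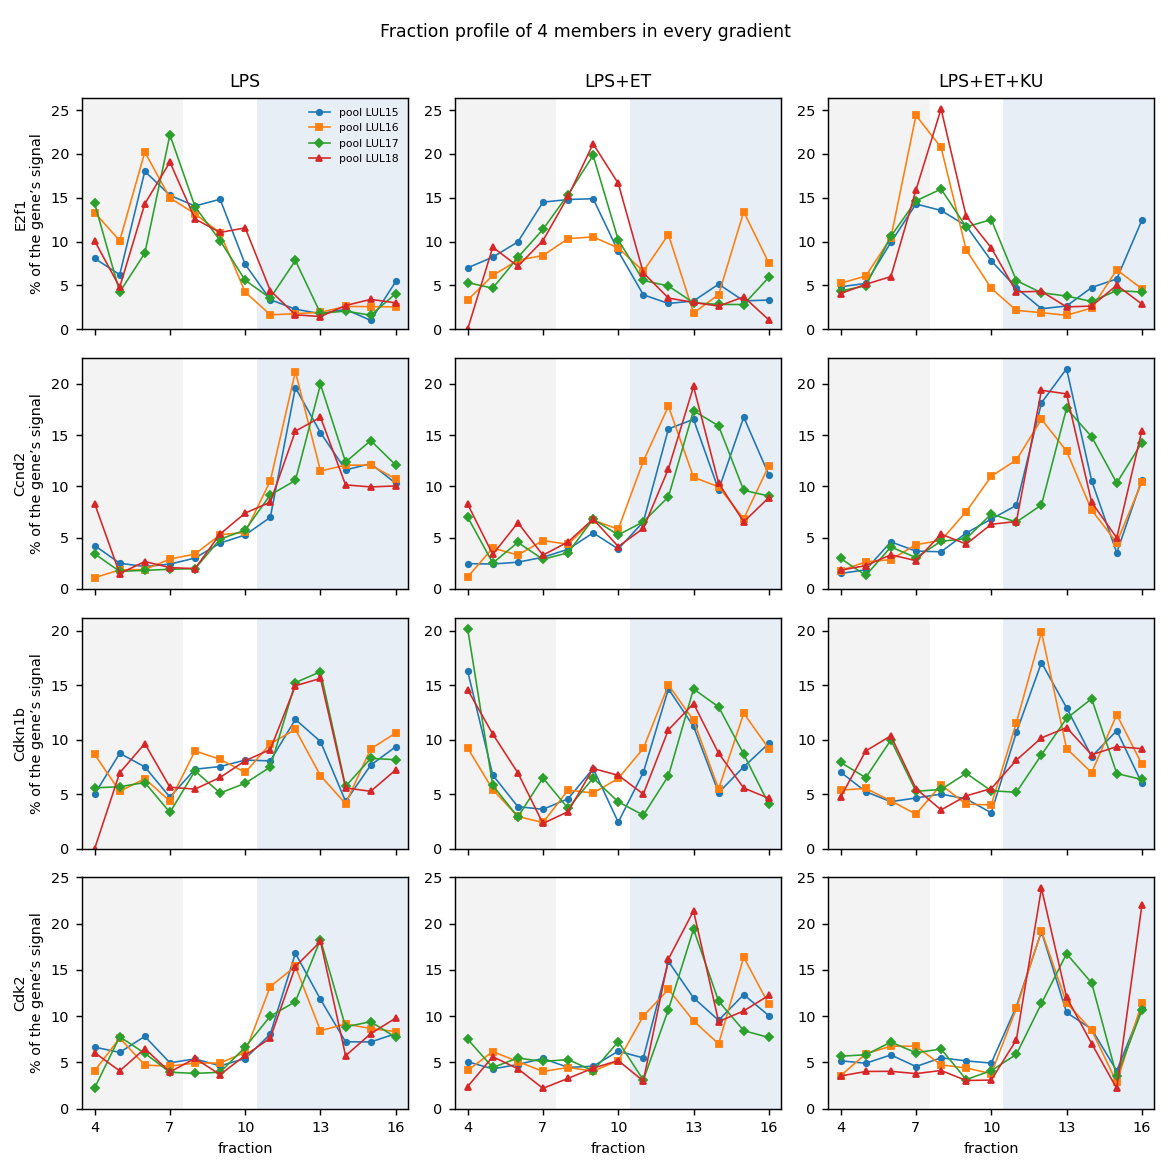
Percent of signal (vertical axis) by fraction (horizontal axis) of E2f1, Ccnd2, Cdkn1b and Cdk2 in every gradient, with 1 line per library pool, 1 column of panels per treatment, monosomes shaded grey and heavy polysomes blue. The E2f1 hump sits further right in LPS+ET than in LPS in pools LUL15, LUL17 and LUL18. In pool LUL16 of LPS+ET its highest point is fraction 15, with 49 tags in all heavy fractions. Fraction 4 of Cdkn1b is raised in LPS+ET (9.23 to 20.2%), and fraction 15 of Cdk2 dips in LPS+ET+KU (2.17 to 4.07%).

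Around these 10 genes, 40 other regulators of the G1 to S transition were listed and 38 had enough counts. In LPS+ET against LPS 4 of the 38 rose and 2 fell in edgeR (6 and 9 with the block), where 12.7% of all genes were called (26.7% with the block), with a median log2 difference of -0.10 against 0.03 over all genes. The risers were the kinase inhibitors Cdkn1a (4.64, adjusted p = 5.28e-07), Cdkn1c (2.09, adjusted p = 0.00299) and Cdkn2c (1.27, adjusted p = 0.00136), and the pocket protein Rbl2 (1.22, adjusted p = 0.00437). Myc, which drives growth and D-type cyclin expression, fell by 1.62 (adjusted p = 0.003) and the kinase Dyrk1a fell by 0.60 (adjusted p = 0.00633). The inhibitors thus did not share a direction. In the blocked fit Cdkn1b and Cdkn2d (-1.29, edgeR adjusted p = 0.000405) were called lower. Cdkn1a, Cdkn1c, Cdkn2c and Cdkn2b (1.37, adjusted p = 0.00138) were called higher there, and Cdkn2a was not called (-0.52, adjusted p = 0.052).

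Of the 38, 1 rose in LPS+ET+KU against LPS, Cdkn1a (4.51, edgeR adjusted p = 9.14e-07), and 5 fell: Myc by 1.57, the S phase cyclin Ccna2 by 1.47, the kinase chaperone Cdc37 by 0.95, the mitotic brake Wee1 by 0.93 and Dyrk1a by 0.78. In this comparison 10.7% of all genes were called. With the block 5 rose and 15 fell, where 28.1% of all genes were called and 13.3% were called lower, and the median was -0.30 against 0.09 over all genes. Against LPS+ET none of the 38 was called by edgeR (11 at an unadjusted p under 0.05), and 1 rose and 5 fell with the block, where 6.36% of all genes were called. The riser was Lin37 (0.61), and Cdkn2c, Cdkn2b (-1.28), E2f3 (-0.71), Tfdp1 (-0.69) and Wee1 (-0.63) fell. Cdkn2c gave 33.2, 31.3, 40.9 and 31.5 CPM in LPS gradients, 89.2, 46.5, 113 and 82.2 after etoposide and 43.2, 33.4, 38.1 and 42.8 with the inhibitor added. Each LPS+ET value was above all of the others, and the fall between the etoposide groups was called with the block (-1.02, edgeR adjusted p = 0.00166) but not without (-1.07, adjusted p = 0.0319).

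Genes that E2F is known to switch on for DNA replication were followed as a list of 30, of which 29 had enough counts. In LPS+ET against LPS none of the 29 was called by edgeR (7 at an unadjusted p under 0.05), against 12.7% of all genes, with a median of -0.04. With the block 1 rose and 3 fell, where 26.7% of all genes were called and 12.8% called lower. In LPS+ET+KU against LPS 3 fell and none rose: the polymerase subunit Pola1 by 1.74 (adjusted p = 0.00787), the helicase factor Gins1 by 0.90 (adjusted p = 0.00423) and the helicase subunit Mcm6 by 0.75 (adjusted p = 0.00609). Of all genes 10.7% were called there. With the block 10 fell and 1 rose, where 28.1% of all genes were called and 13.3% called lower, and the median was -0.28. Between the etoposide groups none was called by edgeR (5 at an unadjusted p under 0.05), where 0.455% of all genes were. The median was -0.32 against 0.04 over all genes. With the block 1 fell, where 6.36% of all genes were called.

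Over the 12 gradients the log2 levels of Cdk2 and Ccne1 varied alike (Pearson's r = 0.914), the closest pair among the 10, followed by Ccnd3 with Cdk4 (0.83). These values describe 12 gradients in which treatments and pools both vary. Outside the 10, the closest profiles were those of Sept6 (0.984) and Faim3 (0.978) to Ccnd3, Pipox (0.978) and Dnaic2 (0.954) to E2f1, Rere (0.969) and Arhgdia (0.967) to Cdk4, Wapal (0.955) and Cenpl (0.951) to Cdk2, and Fam76b (0.949) and Ttll11 (0.903) to Cdkn1b. For the remaining genes they were Dcun1d1 (0.941) and Sept2 (0.934) to Ccnd2, Mtmr3 (0.943) and Pax5 (0.933) to Cdk6, Kctd20 (0.936) and Dhodh (0.923) to Ccne1, Galnt7 (0.88) and Vps13c (0.867) to Ccne2, and Gm21970 (0.882) and Ccdc138 (0.871) to Rb1.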

How the data were processed

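Per the paper's methods and the labels, the authors reverse transcribed equal RNA concentrations of each gradient fraction with oligo(dT) primers carrying random bases, removed PCR duplicates by those bases, trimmed A tracts, mapped the tags to GRCm38/mm10 (Ensembl annotation) and tallied them by gene at poly(A) sites. The submitters' processing notes name TopHat2 2.0.12, HTSeq and DESeq2 1.6.3. The deposited values are raw counts, for 19600 genes in 157 libraries; a fraction 17 library of 777 counts was not used. Columns were matched to 1 sample (79) or to treatment and fraction (78, pools LUL16 and LUL18).

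Fractions 4 to 16 of each gradient, or of each class, were added up and tested with edgeR 4.0.16 (TMM, default filter, quasi-likelihood F-test, R 4.3.3) on 12 gradients with treatment as the only term, two-sided, with Benjamini-Hochberg adjustment over all genes tested and calls at 0.01, the threshold of the study. CPM levels are TMM scaled. Ratios of heavy to monosome level used 36 class sums with a term per gradient. Heavy shares were tested as logits with limma 3.58.1. DESeq2 1.42.0, the pool as a block, equal weight per fraction (limma on log2 of CPM plus 0.5), no filter and leaving out gradients were alternatives. The functions were tested on simulated data. Gradients of the same pool correlated at 0.305 to 0.799 in their deviations from treatment means (12 pairs, median 0.585) and others at -0.628 to 0.284; the pairing comes from the column names. The study gives its samples as biological replicates, but nothing ties gradients to animals, so p-values measure the spread between these gradients. Positions are 1-based, on GRCm38 with GENCODE M21 transcripts. The genes and lists were chosen with earlier results of these data known; the 10 genes are described whatever their values, other listed genes where called, and likeness by the 2 highest correlations per gene. The summed level of B cell markers is not reported here.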

Additional observations from a re-analysis of the deposited data

Results flagged for a closer look

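For each of the 10 genes the level and the heavy share were screened in each treatment for a gradient that stood apart from the other 3 by Dixon's test at 95%, which chance alone gives for about 1 group in 20. Of 60 groups 5 did so, all of them in LPS+ET+KU. Ccnd2 stood at 388 CPM in pool LUL17 against 221 to 248 CPM in the others. In pool LUL16 Ccnd3 stood at 129 CPM against 26.9 to 36.8 CPM, and E2f1 at 99.3 CPM against 36.9 to 39.8 CPM. Ccne2 stood at 10.4 CPM in pool LUL18 against 16.3 to 17.5 CPM. The heavy share of Ccne2 was 66.2% in pool LUL15 against 49.2 to 50.4%.

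The heavy to monosome ratio differed between treatments for 2 genes, by the edgeR test of the change itself. Between LPS and LPS+ET the log2 ratio of E2f1 rose by 1.27 (SE 0.24, adjusted p = 0.000391) and that of Ccnd2 fell by 1.02 (SE 0.22, adjusted p = 0.00154).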

How the results depend on the processing

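In level, LPS+ET against LPS, 0 of the 10 genes called in edgeR became 5 with the pool as a replicate block and 2 in DESeq2, and 0 to 1 when single gradients were left out. With the block, LPS+ET+KU against LPS gave 2 and LPS+ET+KU against LPS+ET 1. Leaving out single gradients from the blocked fits gave 1 to 7, 0 to 4 and 0 to 2 in the 3 comparisons, and leaving out pool LUL16 gave 8 and 2 in the latter 2. Over all genes the calls went from 1618 to 3403, from 1361 to 3589 and from 58 to 811 with the block. In monosomes the 1 call of LPS+ET against LPS became 5 with the block, 2 in DESeq2 and 0 to 2 over left-out gradients. In light polysomes the 2 calls became 4 with the block and 0 to 2, and in heavy polysomes left-out gradients gave 0 to 1. Between LPS+ET+KU and LPS+ET the block gave 1 call in monosomes, 1 in light and 1 in heavy polysomes.

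For the heavy to monosome ratio, left-out gradients gave 3 to 6 calls in LPS and 3 to 5 in LPS+ET+KU, where equal weight per fraction gave 9. For its change, LPS+ET against LPS gave 0 calls with equal weight and 1 to 2 with gradients left out. LPS+ET+KU against LPS gave 1 without pool LUL16 and 0 to 1 with gradients left out. The interaction alone called 3 and 1 genes in the profile test, where the full model called 5 and 2. The ratio of Cdkn1b in LPS (-0.00) was 0.65 with equal weight, 0.010 without fraction 4 and -0.077 to 0.085 with gradients left out, and in LPS+ET+KU (0.18) it was -0.13 to 0.42. That of Ccne2 in LPS+ET+KU (-0.20) was 0.79 with equal weight. The cause of these differences was not tested. Of the other values of single genes 857 kept direction and side of the threshold, 58 gained a call and 102 lost one. Among the comparisons described, the block changed no other number of calls by over 1.5 times. The fits without fraction 4 or pool LUL16, and left-out gradients in blocked fits, were chosen after seeing the data.

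Depth limits Cdk6 (324 counts) and all values of fraction 4 and of the LPS+ET gradient of pool LUL16. Without the amount of RNA per fraction, shares and levels are relative.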
